A study of Mus musculus with 6 samples.

Results

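Oxidative stress response genes were followed through single-cell RNA libraries of cultured mouse Müller glia, glial cells that span the retina. They are Nfe2l2, which encodes the transcription factor NRF2, and 8 of its known targets: Slc7a11, Gclc, Gclm, Txnrd1, Srxn1, Prdx1, Hmox1 and Nqo1. They were taken by symbol from the gene table, 9 of 27998 genes, and all 9 passed the filter on low levels in Müller-like cells, as did 7099 genes in all. The cultures came from papain-dissociated retinas grown with 10% fetal bovine serum, N2, L-glutamine and EGF, and were transfected with Lipofectamine 3000, each RNA at 500 nM. There were 6 libraries, 1 per treatment: let-7 antagomiR (which blocks miRNAs of the let-7 family), miR-25 mimic, miR-124 mimic, the double combination (let-7 antagomiR and miR-25 mimic), the triple combination (the same with miR-124 mimic), and the control (control miRNA mimic and antagomiR). All received lipid and RNA, so no untreated cells stand beside them, and the labels give no strain, age or number of animals. With 1 library per treatment nothing could be checked against replicates, and no difference was tested. The 95% intervals cover counting error only.

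NRF2 is held at a low level by KEAP1, which hands it to a ubiquitin ligase. When oxidants or electrophiles modify KEAP1, NRF2 builds up in the nucleus, pairs with a small MAF protein and binds antioxidant response elements near its target genes. The targets import cystine, make glutathione, recycle thioredoxin and peroxiredoxins, break down haem and reduce quinones. Müller glia hold much of the glutathione of the retina. Since NRF2 is set largely at the protein level, the mRNA of Nfe2l2 alone does not report its activity.

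The transfected RNAs and the elements of these genes can be read as sequence, which shows where either could act on them. The miRNAs are given from RefSeq (GRCm38.p6) with the seed, bases 2 to 8, in capitals. The let-7a member stands for 8 let-7 miRNAs that share its seed, and the 3p arm of miR-25 was assumed because the labels name no arm.
let-7a-5p: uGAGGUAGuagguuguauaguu
miR-25-3p: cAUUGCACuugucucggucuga

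Annotated 3′ UTRs of the 9 genes held 1 site for let-7 and 1 for miR-25-3p. The Slc7a11 site is at chr3:50367157-50367183 on the minus strand of GRCm38 and that of Gclm at chr3:122269553-122269579 on the plus strand. Capitals mark the 7 bases that pair with the seed.
Slc7a11, let-7 site: tatgtccttaCTACCTCttgatgaagc
Gclm, miR-25-3p site: taaatcacttGTGCAATtgtgttctta

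A let-7 site was present in 10.1% of 21173 genes with an annotated 3′ UTR and a miR-25-3p site in 6.89%. A match is a description of the sequence and no evidence of binding. Sites of miR-124 were not analysed here.

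Antioxidant response elements were looked for as TGACNNNGC on either strand, from 250 bases before to 50 bases after each gene's start in RefSeq (GRCm38.p6). Of the 7 members with such a window (9 windows, since Txnrd1 has 3), 5 held a match, against 14.0% of 27025 genes and 12.4% of 32851 windows. The matches of 4 members are shown on the gene's own strand with the 9 matched bases in capitals, and that of Srxn1 begins 28 bases after the start base. They lie at chr2:75704885-75704913 (Nfe2l2, minus strand), chr3:122245413-122245441 (Gclm), chr10:82859104-82859132 (Txnrd1) and chr4:116685456-116685484 (Prdx1), the last 3 on the plus strand.
Nfe2l2: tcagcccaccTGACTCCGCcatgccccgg
Gclm: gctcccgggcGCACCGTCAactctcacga
Txnrd1: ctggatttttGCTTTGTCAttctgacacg
Prdx1: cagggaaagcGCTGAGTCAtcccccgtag

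The Prdx1 match, read on the other strand, is TGACTCAGC, which contains the AP-1 motif TGACTCA and was present in 0.454% of windows. No match lay in the windows of Slc7a11 and Nqo1. The search covers only these windows, and enhancers further away were not read.

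Some libraries stand apart or go against their labels, which bears on the values that follow. Kept cells numbered 2721 to 5158 per library, with 3472.5 to 5873.5 UMIs (unique RNA molecules counted) at the median. The matrix of the double combination could be read only in part, 5094879 of 8637523 entries and 3014 of 5141 barcodes. Any 2 libraries shared 9 to 33 cell barcodes. Genes with and without a miRNA site were compared by least squares over 6985 genes. The fit was adjusted for 3′ UTR length, its GC content and mean level. In the library labelled miR-124, genes with a let-7 site stood higher against control, by an adjusted 0.10 on the log2 scale. The let-7 antagomiR library had 0.078, and the label miR-124 names no let-7 inhibitor. In the library labelled triple combination, genes with a miR-25 site differed by 0.0099 from those without, although the label names miR-25. The same difference was -0.15 after miR-25 mimic and -0.16 in the double combination. The label also names let-7 antagomiR, but genes with a let-7 site stood at only 0.025 there. They stood at 0.078 after let-7 antagomiR, 0.085 in the double combination and 0.020 after miR-25 mimic. The 2 libraries are therefore called by their labels throughout.

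Müller-like cells were 1614 after let-7 antagomiR, 3104 after miR-25 mimic, 1273 for the library labelled miR-124, 1388 under the double combination, 2291 for the library labelled triple combination and 1349 in the control. They lie in 4 clusters led by Npvf, Lcn2, Gfap and Crym. Each had 12 to 19 of 20 Müller glia markers at least 2-fold over the lower quartile of all clusters, with 20 CPM added to both levels. None of these markers is among the 10 leading genes of the Npvf cluster. That marker count is not particular to the class. It was 18 in the neuron- or progenitor-like cluster, 14 in an unnamed cluster led by Mgp and 9 in the astrocyte-like cluster. The Gfap-led cluster held 721 cells from the library labelled miR-124 and 1743 from that labelled triple combination, where the others had 28 or fewer each, so different clusters make up the class in different libraries. Slc7a11 is itself among the leading genes of the Lcn2 cluster, and 6 of the 9 genes (all but Nfe2l2, Nqo1 and Gclm) were used in clustering. In a clustering made without the 9 genes and the pathway lists, all 14 differences called below kept their sign and their call. Levels are CPM, a gene's share of the UMIs summed over the Müller-like cells of a library, times 1000000. In such sums fewer cells expressing a gene and less RNA per cell cannot be told apart.

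The regulator itself differed little between libraries. Nfe2l2 had 78.2 CPM after let-7 antagomiR, 83.6 after miR-25 mimic, 65.3 for the library labelled miR-124, 72.4 under the double combination, 67.1 for the library labelled triple combination and 77.1 CPM in the control. The highest library was 1.28 times the lowest, and the 5 log2 ratios of CPM + 5 to the control lay between -0.22 and 0.11. Keap1, its inhibitor, stood between 31.5 and 35.3 CPM in the 5 treated libraries and at 34.9 CPM in the control.

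Slc7a11, which encodes the transport subunit of the cystine/glutamate exchanger, had the widest range of the 9, 4.12-fold. It lies on the minus strand at chr3:49892526-50443614 (mm10, GENCODE vM21). Its level was 247 CPM after let-7 antagomiR (237 to 257), 465 CPM after miR-25 mimic (453 to 477), 223 CPM for the library labelled miR-124 (208 to 239), 523 CPM under the double combination (504 to 542), 127 CPM for the library labelled triple combination (120 to 134) and 347 CPM in the control (331 to 362). The libraries with miR-25 mimic and the double combination thus lay above the control and the other 3 below it, and none of their intervals overlapped with that of the control, while those of let-7 antagomiR and the library labelled miR-124 overlapped with each other. The partner subunit Slc3a2, shared with other amino acid transporters, did not follow that order, at 519, 591, 444, 474 and 617 CPM in the treated libraries in the same order and 653 CPM in the control.

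Glutathione is made from cysteine by glutamate-cysteine ligase, whose catalytic subunit is encoded by Gclc and whose modifier subunit by Gclm. Gclc had 16.0 CPM after let-7 antagomiR, 21.3 after miR-25 mimic, 43.1 for the library labelled miR-124, 17.8 under the double combination, 33.8 for the library labelled triple combination and 23.8 CPM in the control. Gclm stood at 32.2, 34.9, 54.1, 23.8 and 54.8 CPM in the treated libraries in that order and at 43.5 CPM in the control. Both subunits were therefore highest in the library labelled miR-124 and that labelled triple combination. Gclm was lowest in the double combination (19.9 to 28.2 CPM), below the interval of the control (38.1 to 49.3 CPM).

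In the thioredoxin branch, the range over libraries was 1.66-fold for Txnrd1, 2.07-fold for Srxn1 and 1.18-fold for Prdx1. Txnrd1, the cytosolic thioredoxin reductase, lies on the plus strand at chr10:82833951-82897712. It had 272 CPM after let-7 antagomiR (261 to 282), 245 CPM after miR-25 mimic (236 to 254), 295 CPM for the library labelled miR-124 (277 to 313), 209 CPM under the double combination (197 to 221), 216 CPM for the library labelled triple combination (207 to 226) and 347 CPM in the control (332 to 363). All treated libraries lay below the control, and none of their intervals overlapped with that of the control. Srxn1, sulfiredoxin, which repairs over-oxidised peroxiredoxins, had 40.1, 37.7, 78.1, 46.0 and 61.1 CPM in the treated libraries in the same order and 51.6 CPM in the control. It was thus highest in the library labelled miR-124. Prdx1, a cytosolic peroxiredoxin that removes hydrogen peroxide, varied least, from 868 CPM after let-7 antagomiR to 1028 CPM in the double combination, with 986 CPM in the control.

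Hmox1, at chr8:75093621-75100589 on the plus strand, encodes the inducible haem oxygenase. It had 89.9 CPM after let-7 antagomiR (83.9 to 96.2), 113 CPM after miR-25 mimic (108 to 120), 122 CPM for the library labelled miR-124 (111 to 134), 99.4 CPM under the double combination (91.4 to 108), 95.6 CPM for the library labelled triple combination (89.4 to 102) and 166 CPM in the control (155 to 177). Every treated library was below the control. Nqo1, which reduces quinones, was scarce, at 15.9, 19.8, 18.8, 14.8 and 21.7 CPM in the treated libraries in that order. The control had 22.5 CPM (18.8 to 26.9). Ratios to the control lay below 1 beyond counting error for let-7 antagomiR (0.705, 0.552 to 0.902) and the double combination (0.657, 0.492 to 0.873). The intervals of the other ratios included 1.

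**Figure D1:**
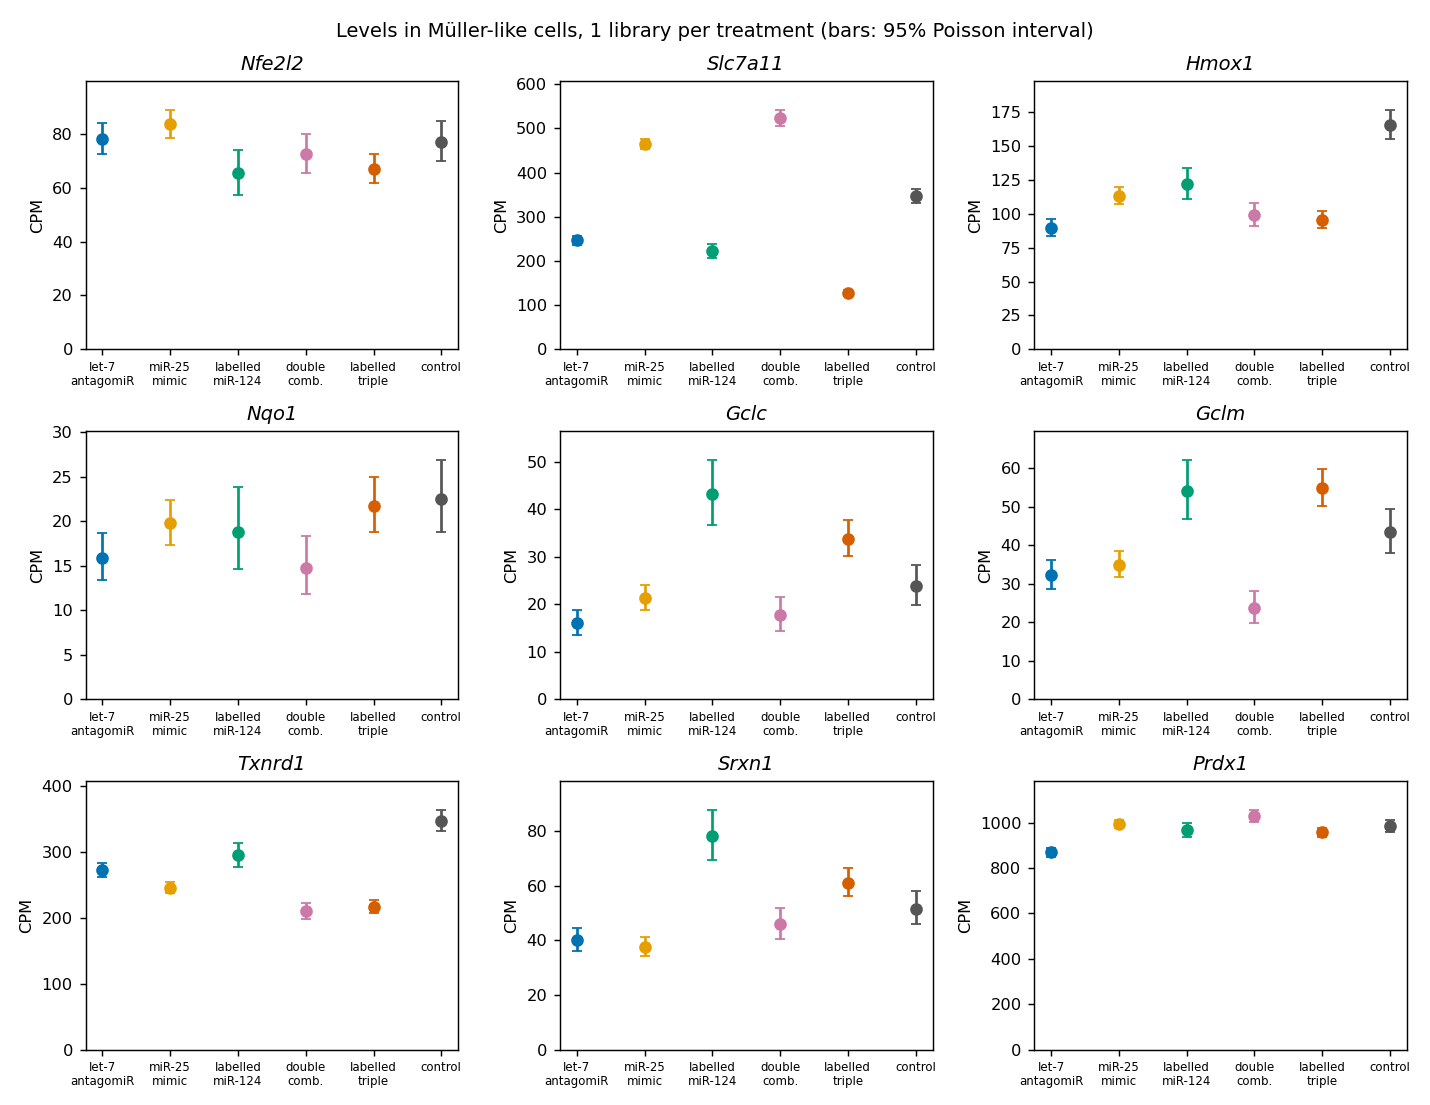
Level of each oxidative stress response gene in Müller-like cells (vertical axis, CPM from 0), 1 point per library with its exact 95% Poisson interval as the bar, treated libraries on the left and the control on the right. Slc7a11 spans 127 to 523 CPM, and Hmox1 and Txnrd1 are highest in the control, at 166 and 347 CPM.

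Each contrast was read as the log2 ratio of CPM + 5, and a gene counts as higher or lower past 1.5-fold. With let-7 antagomiR against control, 1 member was lower and 0 higher, where 0.676% of the 7099 genes were lower and 1.04% higher. That member is Hmox1, at -0.85 (ratio 0.542, interval 0.493 to 0.596), with 0.113% of all genes below it. With miR-25 mimic against control 0 members passed either limit, against 1.37% of all genes higher and 1.0% lower. The nearest were Hmox1 at -0.53, Txnrd1 at -0.49 and Slc7a11 at 0.42.

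In the double combination against control, 1 member was higher and 3 lower, where 3.20% of all genes were higher and 4.93% lower. Slc7a11 stood higher at 0.59 (ratio 1.51, 1.42 to 1.60), which is at the limit itself. Gclm stood lower at -0.75 (ratio 0.548, 0.440 to 0.679). Hmox1 was lower at -0.71 and Txnrd1 at -0.72. Set against miR-25 mimic alone, 0 members of the double combination passed, with 2.17% of all genes higher and 3.79% lower, and the members ran from Gclm at -0.47 to Srxn1 at 0.26. Set against let-7 antagomiR alone, Slc7a11 was the 1 member that passed, higher at 1.07 (ratio 2.12, 2.01 to 2.24), with 2.34% of all genes higher and 4.32% lower. Neither call of Slc7a11 held among Müller-like cells with at most 5% mitochondrial UMIs, where the double combination stood at -0.29 against control and at 0.011 against let-7 antagomiR.

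The library labelled miR-124 against control had 1 member higher and 1 lower, with 7.87% of all genes higher and 6.63% lower. Gclc stood higher at 0.74 (ratio 1.81, 1.43 to 2.30) and Slc7a11 lower at -0.63 (ratio 0.643, 0.592 to 0.698). Srxn1 was short of the limit at 0.55. In the library labelled triple combination against control 3 members were lower and 0 higher, where 8.61% of all genes were lower and 10.8% higher. Slc7a11 stood at -1.41 (ratio 0.366, 0.340 to 0.394), Hmox1 at -0.76 and Txnrd1 at -0.67. The 5 contrasts with the control share that library, so they are not separate readings of a gene. In the order let-7 antagomiR, miR-25 mimic, labelled miR-124, double combination and labelled triple combination, the median of the 9 genes against control was -0.38, -0.15, -0.21, -0.34 and -0.04, where that of all genes was 0.01, 0.03, 0.05, -0.02 and 0.05. In the same order 1, 3, 3, 2 and 3 of the 9 genes stood above 0.

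The contrast with the most genes past the limit set the library labelled triple combination against the double combination, with 18.0% of all genes higher and 13.0% lower. Slc7a11 was lower at -2.00 (ratio 0.243, 0.227 to 0.260), with 0.676% of all genes below it. Gclm was higher at 1.06 (ratio 2.31, 1.90 to 2.81) and Gclc at 0.77 (ratio 1.90, 1.51 to 2.40). Of all genes, 93.4% lay below Gclm and 88.2% below Gclc. In all, 2 of the 9 members were higher and 1 lower, which is near the shares of all genes. Gclc lay within the 10th to 90th percentile of all genes (-0.68 to 0.84). The importer was lower and the 2 glutamate-cysteine ligase subunits higher, but these counts do not set the 9 genes apart from the rest. Txnrd1 was at 0.05 and Hmox1 at -0.05.

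**Figure D2:**
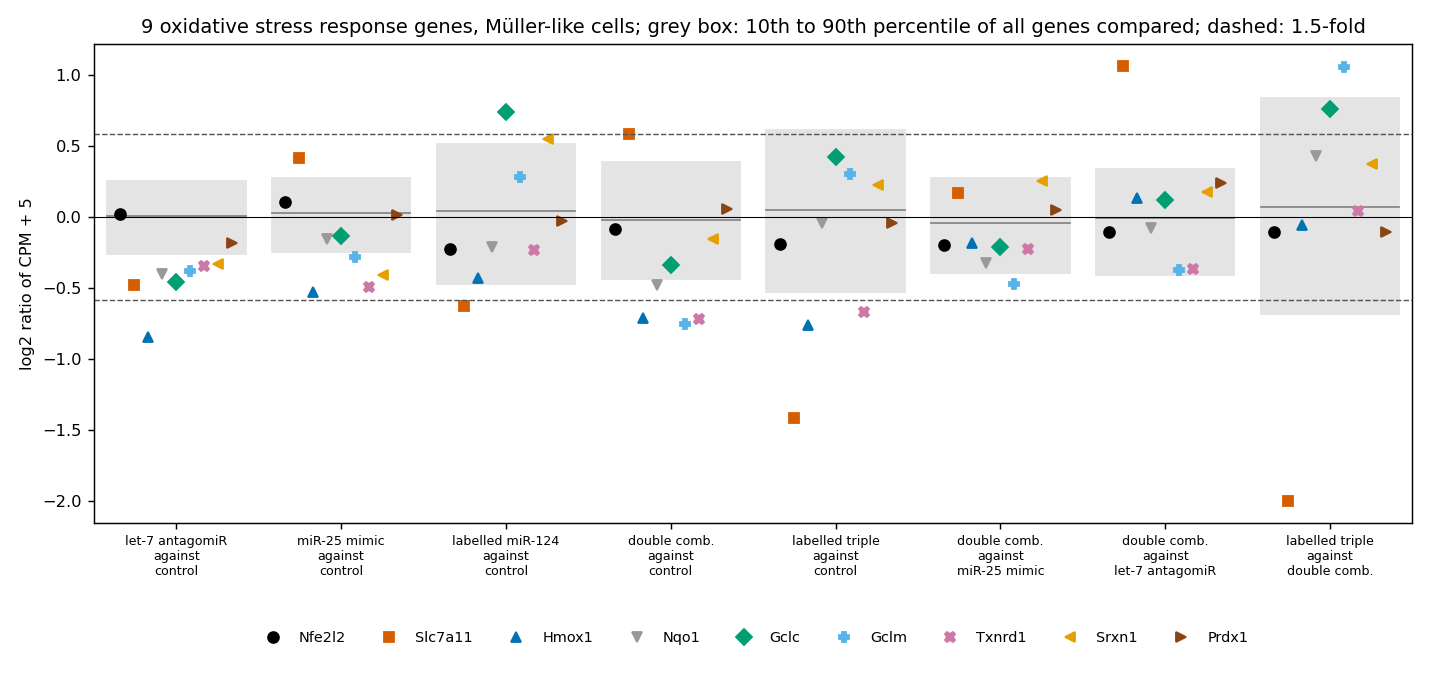
Log2 ratio of CPM + 5 of the 9 genes in Müller-like cells (vertical axis) in 8 contrasts, first-named library over the second, 1 symbol per gene. The grey box runs from the 10th to the 90th percentile of all 7099 genes with their median as a line, and dashed lines mark 1.5-fold. Slc7a11 lies at 0.59 under the double combination and at -1.41 for the library labelled triple combination, each against control, and Hmox1 is below 0 in all 5 contrasts with the control.

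The differences were then read within clusters of the Müller-like cells, formed without the 9 genes and led by Npvf, Lcn2, Gfap and Bglap2. In the Npvf-led cluster, the largest, Slc7a11 had 266 CPM after let-7 antagomiR, 465 after miR-25 mimic, 326 for the library labelled miR-124, 528 under the double combination, 192 for the library labelled triple combination and 346 CPM in the control. The double combination against control remained at 0.60 there and the library labelled triple combination at -0.84. The library labelled miR-124 stood at -0.08 against control, so the lower Slc7a11 of that library in the whole class was not present in this cluster. In the Gfap-led cluster, Slc7a11 had 487 CPM in the 50 cells after miR-25 mimic (387 to 604), 111 CPM in the 740 cells from the library labelled miR-124 and 98.9 CPM in the 1802 from that labelled triple combination, so a low level was not shared by all libraries of that cluster.

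Within a library, Slc7a11 was higher in the Lcn2-led than in the Npvf-led cluster in 5 of 6 libraries, for example 633 against 326 CPM in the library labelled miR-124. With let-7 antagomiR the order was the other way, 193 CPM in the Lcn2-led and 266 CPM in the Npvf-led cluster. In the Bglap2-led cluster it stood between 64.6 and 141 CPM over 5 libraries. Lcn2, which encodes lipocalin 2, a binder of iron-carrying siderophores, had 450, 1287, 402, 423 and 376 CPM over all Müller-like cells of the treated libraries, in the order used above, and 704 CPM in the control.

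Hmox1 and Txnrd1 were also uneven over the clusters. Hmox1 had a median over libraries of 183 CPM in the Lcn2-led cluster, 138 CPM in the Npvf-led, 78.5 CPM in the Gfap-led and 34.4 CPM in the Bglap2-led one. Within the Npvf-led cluster Hmox1 against control was -0.80 after let-7 antagomiR, -0.76 under the double combination and -0.02 in that labelled triple combination. The library labelled miR-124 had 215 CPM of Hmox1 there and the control 163 CPM, so the control was not highest in that cluster. Likewise Txnrd1 had 401 CPM in the library labelled miR-124 and 351 CPM in the control of the Npvf-led cluster, and 211 CPM in the double combination.

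Gclc against control kept its side within the Npvf-led cluster of the library labelled miR-124, at 0.58 with 38.2 CPM against 23.9 CPM, just short of 1.5-fold. Gclm in the double combination against control was -0.79 in that cluster. There Gclc had 24.9 CPM in the library labelled triple combination and 17.9 CPM in the double combination, with overlapping intervals. Gclm had 43.5 and 22.6 CPM in the same libraries.

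**Figure D3:**
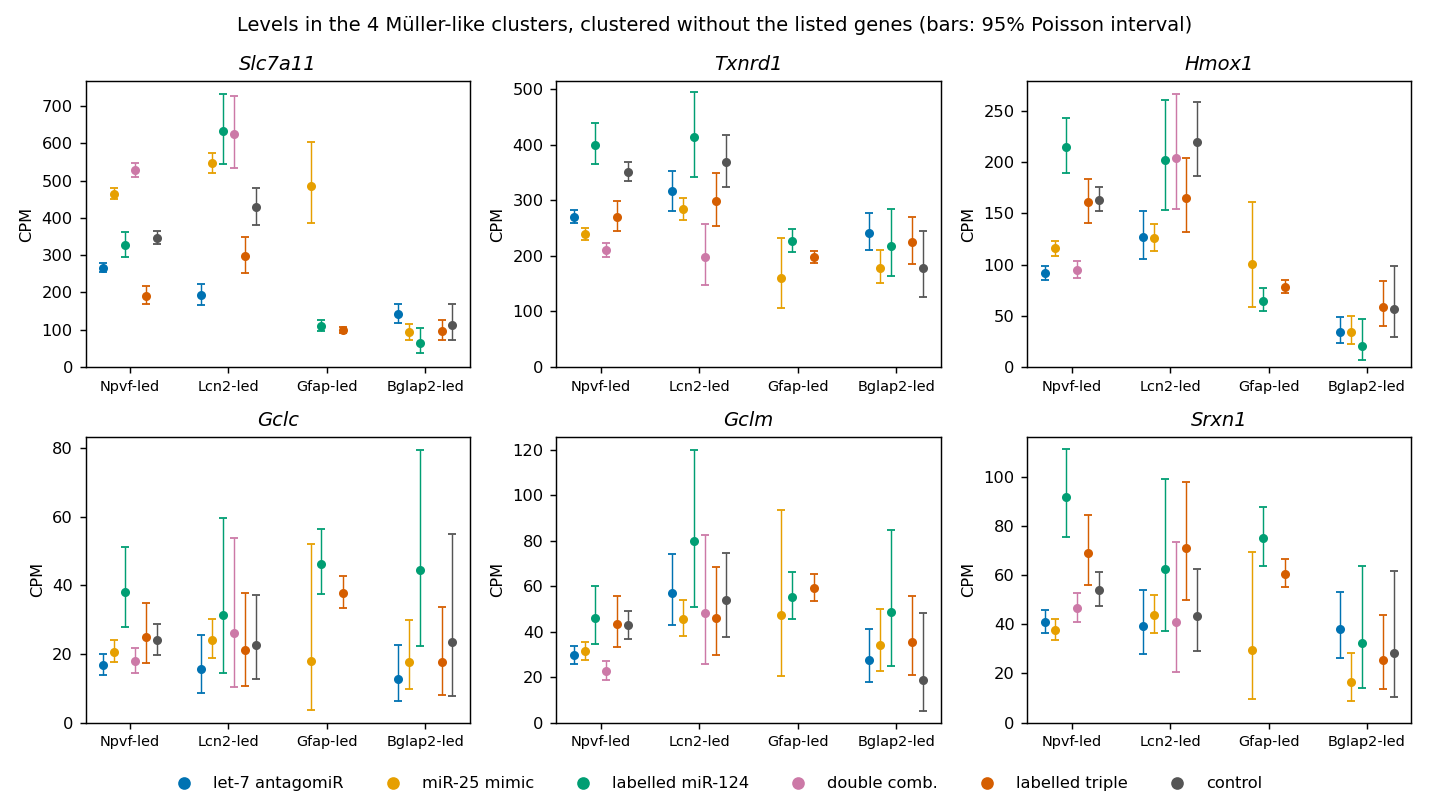
Levels of 6 of the genes (vertical axis, CPM from 0) in the 4 Müller-like clusters of the clustering made without them, 1 point per library with at least 50 cells and its exact 95% Poisson interval. In the Gfap-led cluster Slc7a11 is at 487 CPM after miR-25 mimic, 111 CPM for the library labelled miR-124 and 98.9 CPM for that labelled triple combination, and Hmox1 is lowest in the Bglap2-led cluster, with a median over libraries of 34.4 CPM.

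Slc7a11 differed with the mitochondrial share of the cells in some libraries, and not in 1 direction. In the double combination it had 566 CPM in Müller-like cells with above 5% mitochondrial UMIs and 336 CPM in the other 255 cells. The 2 levels were 229 and 333 CPM after let-7 antagomiR, 478 and 430 CPM after miR-25 mimic, 224 and 215 CPM for the library labelled miR-124, 125 and 135 CPM for that labelled triple combination, and 339 and 412 CPM in the control. The intervals overlapped for the library labelled miR-124 and that labelled triple combination and not in the other 4. Among cells with at most 5% mitochondrial UMIs, the double combination therefore stood at -0.29 against control, where it had stood above it, and the control had 132 such cells. Among these cells Hmox1 had 90.3 to 199 CPM in the treated libraries, highest in that labelled miR-124, and 198 CPM in the control, and Txnrd1 304, 243, 400.4, 187 and 246 CPM in the treated libraries and 418 CPM in the control. The median mitochondrial share of Müller-like cells was 5.90% to 7.49% in the treated libraries and 7.34% in the control. The part of cell quality in these differences was not tested.

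Markers of other cell types also varied between the Müller-like cells of the libraries. The 11 pericyte or smooth muscle markers summed to 4713, 3602, 2040, 6135 and 1185 CPM in the treated libraries and to 4242 CPM in the control. The 8 retinal astrocyte markers, which include Gfap, summed to 138, 178, 610, 106 and 1259 CPM in the treated libraries and 136 CPM in the control. The 14 microglia or macrophage markers found summed to 20.1 to 31.7 CPM in the treated libraries and 21.6 CPM in the control. The 10 fibroblast markers summed to 85.9 to 141 CPM and 151 CPM, and of the 8 endothelial markers (373 to 1425 CPM and 558 CPM) Cdh5, Cldn5 and Tie1 had no UMI. Their part in the results was not tested.

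Over the whole culture the 9 genes were not all glial. Of the 6 cell classes, each summed per library where it had at least 50 cells, microglia-like cells had the highest median over libraries for Nfe2l2, Hmox1, Srxn1, Gclm and Prdx1. Müller-like cells had it for Slc7a11, Txnrd1 and Nqo1, and fibroblast-like cells for Gclc.

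Prdx1 had a median of 3641 CPM in microglia-like cells, from 2748 to 4838 CPM over the libraries, where Müller-like cells, next in order, had 868 to 1028 CPM. Nfe2l2 stood at 197 CPM in microglia-like cells (166 to 212), astrocyte-like cells followed at 78.2 CPM (57.8 to 86.0), Müller-like at 74.8 CPM and fibroblast-like at 64.5 CPM. The microglia-like values of both genes did not overlap with those of any other class, while the next 3 classes overlapped among themselves. Hmox1 had medians of 204 CPM in microglia-like and 106 CPM in Müller-like cells, with overlapping ranges, and both lay above the 53.4 CPM of astrocyte-like cells.

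Slc7a11 separated the classes most. Its medians were 297 CPM in Müller-like, 168 CPM in neuron- or progenitor-like, 83.9 CPM in microglia-like, 24.1 CPM in pericyte-like, 21.6 CPM in astrocyte-like and 8.36 CPM in fibroblast-like cells. The range of the fibroblast-like class, 5.74 to 13.0 CPM, lay below that of the Müller-like class in every library. Txnrd1 had the same class order at the top, 258 CPM in Müller-like, 172 CPM in neuron- or progenitor-like and 150 CPM in microglia-like cells, and a milder floor, 77.1 CPM in fibroblast-like cells.

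Outside Müller-like cells, Slc7a11 was again highest after miR-25 mimic and under the double combination in microglia-like and pericyte-like cells, while the order of the others was not the same. Microglia-like cells had 86.0 CPM after let-7 antagomiR, 167 after miR-25 mimic, 81.9 for the library labelled miR-124, 173 under the double combination, 64.1 for the library labelled triple combination and 69.9 CPM in the control, from 34 to 61 UMIs each. The libraries with miR-25 mimic and the double combination were thus above the rest. Pericyte-like cells had 60.0 CPM after miR-25 mimic and 57.2 CPM in the double combination, 2.27 to 18.1 CPM in the other treated libraries, and 30.1 CPM in the control. Free RNA can carry UMIs into cells that do not express a gene, and the fibroblast-like cells of the same libraries had 11.3 CPM after miR-25 mimic, 13.0 CPM in the double combination and 6.59 CPM in the control. The part of free RNA was not tested.

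Gclc had the flattest class medians, with 36.8 CPM in fibroblast-like cells (23.9 to 49.5), 22.6 CPM in Müller-like cells and 16.9 CPM in astrocyte-like cells. Neighbouring classes all overlapped, as they also did for Srxn1 and Nqo1. Fibroblast-like cells had 23.9 to 40.5 CPM of Gclc in the treated libraries and 49.5 CPM in the control, so the library labelled miR-124, highest in Müller-like cells, was below the control there, at 35.5 CPM. Nqo1 was scarce in all classes. Microglia-like cells had 0 to 3 UMIs of it per library, at or under the 3 counts that a count of 0 allows, so its place in the order is not resolved there.

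**Figure D4:**
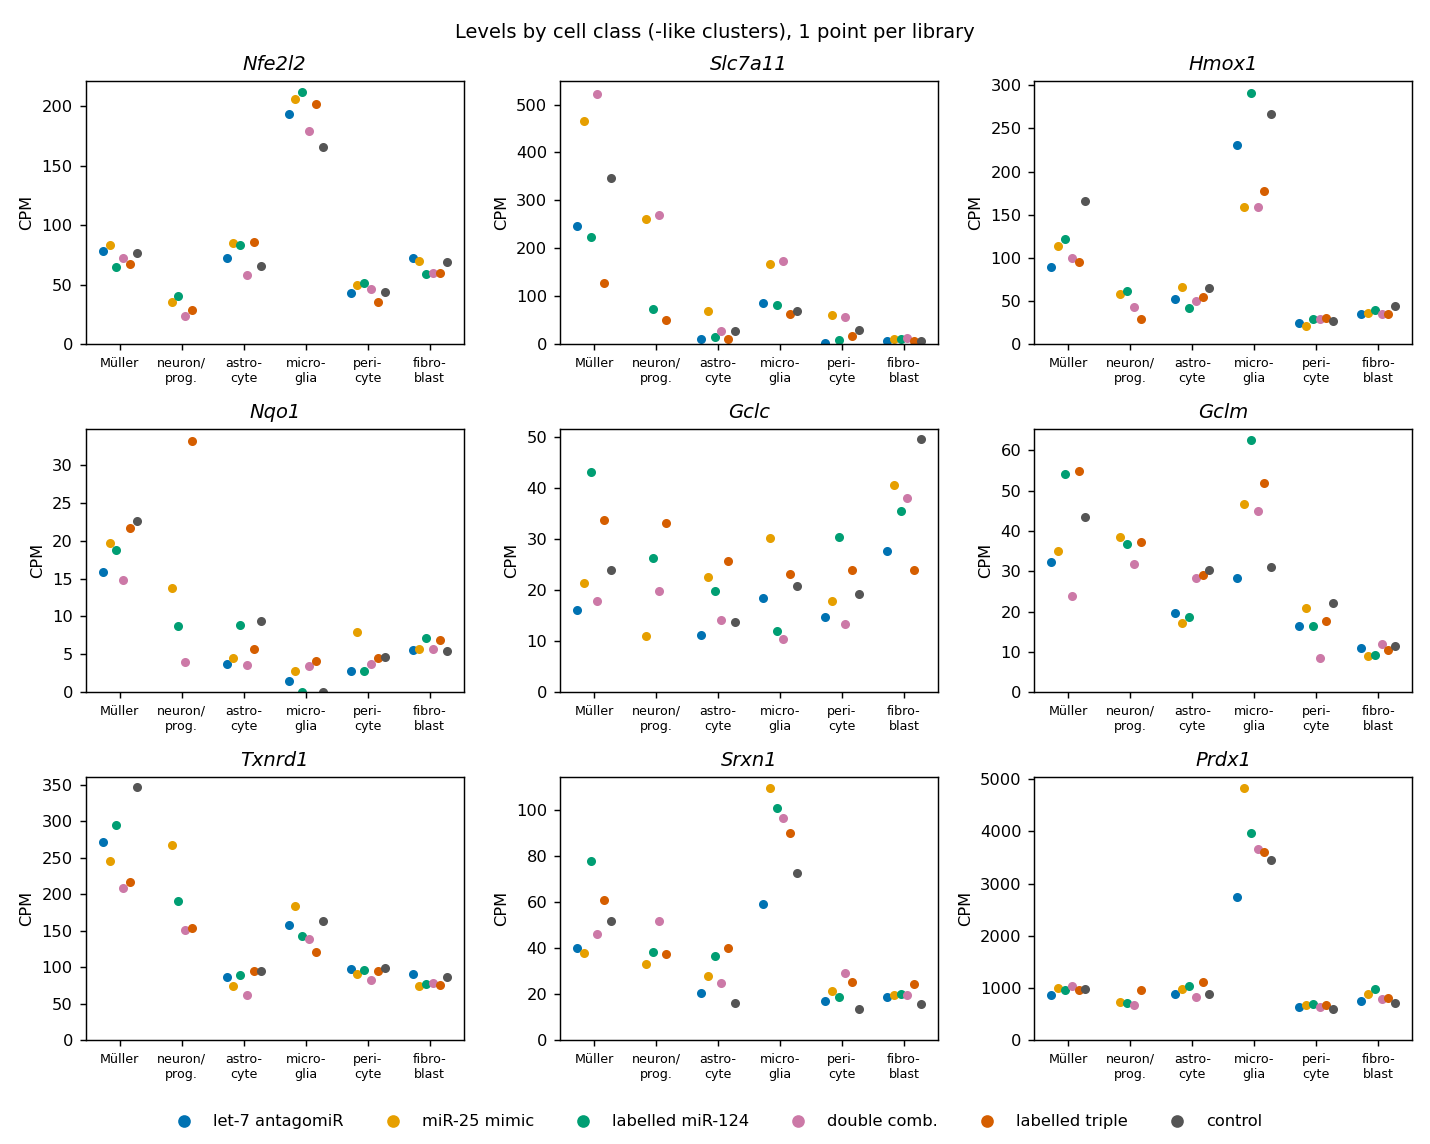
Level of each gene (vertical axis, CPM from 0) by cell class along the horizontal axis, 1 point per library where the class had at least 50 cells, coloured by treatment with the control in grey. Microglia-like cells stand above all other classes for Nfe2l2 and Prdx1, with medians of 197 and 3641 CPM, and Slc7a11 declines from 297 CPM in Müller-like to 8.36 CPM in fibroblast-like cells.

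Across the 34 class and library sums, the member pairs with the highest Pearson r of log2(CPM + 5) were Nfe2l2 and Prdx1 (0.90), Hmox1 and Srxn1 (0.83) and Slc7a11 and Txnrd1 (0.83). Gclc had r between -0.23 and 0.26 with each of the other members. These points share libraries, classes and depth, and the values describe them only. Among 9230 genes, the 3 most like Slc7a11 were Fbxo33 (0.86), Atp1b3 (0.85) and H2-K1 (0.85). Those most like Nfe2l2 were Blvrb, Glmp and Cxcl16 (0.92 to 0.93), most like Prdx1 Pycard, Taldo1 and Ctsb (0.97 to 0.98), and most like Hmox1 Psmb9, Nfatc2 and Gpnmb (0.91 to 0.93). For Txnrd1 they were Pde3b, Frmd4b and Prr5l (0.87 to 0.91), for Nqo1 Cyp2j6, Cyp2d22 and St3gal4 (0.89 to 0.91), and for Srxn1 Trf, Sema4d and Prex1 (0.91). Gclm was most like Apoe, Gsap and Slc43a2 (0.88 to 0.90), and Gclc most like Scara3, Slc16a9 and Slc12a2 (0.71 to 0.75), the lowest of the 9.

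From cell to cell, Slc7a11 was found in fewer cells than Txnrd1 in 5 of 6 libraries, and in more of them under the double combination. After each cell was thinned to 2000 UMIs, a Slc7a11 UMI was present in 18.9% of Müller-like cells after let-7 antagomiR, 31.2% after miR-25 mimic, 14.4% for the library labelled miR-124, 36.4% under the double combination, 8.89% for that labelled triple combination and 24.7% in the control (22.3% to 27.2%). The shares thus keep the order of the levels. A Txnrd1 UMI was present in 31.6% to 37.2% of cells in the treated libraries (32.5% under the double combination) and in 40.5% in the control (37.7% to 43.3%), although both genes had 347 CPM in the control (UMIs count molecules and were not divided by gene length). Before thinning, the control had shares of 31.1% for Slc7a11 and 60.1% for Txnrd1, at a median of 3913 UMIs per cell. In fibroblast-like cells, which served as the background, the thinned share with a Slc7a11 UMI was 0.971% to 2.45% in the treated libraries and 1.35% in the control, where the median was 4596 UMIs. Thinning left out 38 to 194 Müller-like cells per treated library and 126 in the control.

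Müller-like cells with a Slc7a11 UMI were set against those without one in the same library, both thinned, in a separate random draw, so that the number of cells with a UMI differs slightly from the shares above. Txnrd1 was higher in the cells with a Slc7a11 UMI in every library, by 1.15 to 2.68 times, and the counting interval lay above 1 in 5 of 6. In the control it had 657 CPM in the 290 cells with and 245 CPM in the 933 cells without one. Srxn1 ran from 1.18 to 2.89 times, and its interval lay above 1 in 4 of 6 libraries, not after let-7 antagomiR or under the double combination. It had 107 CPM in control cells with and 37.0 CPM in control cells without. Hmox1 in cells with a Slc7a11 UMI was 2.31 times its level in the others for the library labelled miR-124. The ratio was 1.63 for that labelled triple combination and 2.32 in the control, and in these 3 the interval lay above 1. It was 0.908 after let-7 antagomiR, 0.877 under the double combination and 1.02 after miR-25 mimic, all within counting error of 1. Nfe2l2 showed no such difference beyond counting error in any of the 6 libraries, with ratios of 0.629 to 1.34. Lcn2 was higher with a Slc7a11 UMI in all 6 libraries, by 1.18 to 4.28 times. Median mitochondrial shares differed little between the cells, 7.62% with and 7.29% without in the control. These are cells of 1 culture each and not replicates.

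**Figure D5:**
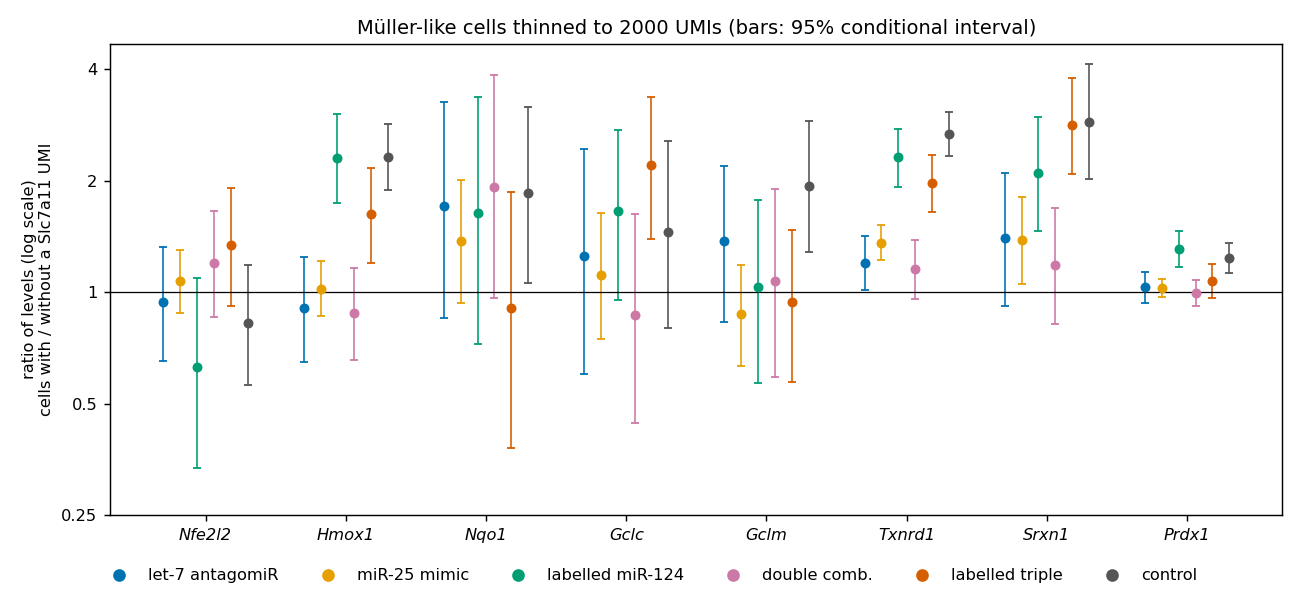
Ratio of each gene's level in Müller-like cells with a Slc7a11 UMI over cells without one (vertical axis, log scale), after thinning to 2000 UMIs, 1 point per library with the control in grey and the exact 95% conditional interval as the bar. Txnrd1 lies between 1.15 and 2.68 in the 6 libraries, and Nfe2l2 between 0.629 and 1.34.

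The rest of the pathway was read from 8 lists with 66 genes, of which 53 passed the filter. With let-7 antagomiR and with miR-25 mimic, each against control, 0 of the 53 were past 1.5-fold in either direction. In the library labelled miR-124 3 were higher and 1 lower, in the double combination 3 higher and 2 lower, and in the library labelled triple combination 3 of each, all against control. These are at most 5.66% in either direction, where 3.20% to 10.8% of all genes were higher and 4.93% to 8.61% lower in those 3 contrasts.

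Among regulators of NRF2, such as Keap1, Cul3 and Bach1, 0 of the 8 measured passed in any of the 8 contrasts. Over these contrasts, 1.04% to 18.0% of all genes were higher and 0.676% to 13.0% lower. The regulators' medians against control ran from -0.09 to 0.05, where those of all genes ran from -0.02 to 0.05. The member with the highest value was Bach1, a repressor that competes with NRF2, at 0.53 in the library labelled miR-124. Superoxide dismutases and catalase, 3 measured, and the quinone and aldehyde enzymes, 4 measured, had 0 past the limit in all 8 contrasts. The same shares of all genes stand beside these counts.

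Prdx6, a peroxiredoxin that also acts on phospholipids, was the most variable of the thioredoxin and peroxiredoxin list with Txnip. Prdx6 had 804 CPM after let-7 antagomiR, 1197 after miR-25 mimic, 1633 for the library labelled miR-124, 702 under the double combination, 2215 for the library labelled triple combination and 1082 CPM in the control. It was past 1.5-fold higher in the library labelled miR-124 (0.59) and that labelled triple combination (1.03), and lower under the double combination (-0.62), and Gclc and Gclm were likewise highest in those first 2 libraries. Txnip, which binds and inhibits thioredoxin, had 96.8 CPM in the double combination and 39.1 CPM in the control, a log2 ratio of 1.21. Prdx4, the peroxiredoxin of the endoplasmic reticulum, stood at -0.73 in the library labelled triple combination against control.

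In glutathione synthesis and use, 12 genes measured, Gstm1 was lower in the library labelled miR-124 (-0.87) and that labelled triple combination (-0.65), with Gstp1 lower (-0.97) and Glrx higher (0.63) in the double combination. Gstm1 and Gstp1 have close copies in the genome, and reads can be split between them. Of NADPH supply, 0 of 6 passed against control, where 1.04% to 10.8% of all genes were higher and 0.676% to 8.61% lower. In the library labelled triple combination against the double combination, G6pdx, which opens the pentose phosphate pathway, stood at 0.74. Tkt, of the same pathway, stood at -0.67 there. Ftl1, the ferritin light chain, which has many pseudogenes, had 14825 CPM in the library labelled miR-124 and 15498 CPM under the double combination, against 9508 CPM in the control. Atf4 encodes a transcription factor that also drives Slc7a11, and of it and its targets 6 were measured. Atf4 itself had 203 CPM in the double combination and 139 CPM in the control (0.53, within the limit). Psat1, of serine synthesis, stood at 1.52 in the library labelled triple combination and Phgdh, of the same pathway, at -0.76.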

How the data were processed

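Per the labels, libraries came from the V2 single-cell system of 10x Genomics, and the deposited matrices hold raw, unnormalised UMI counts. The submitters' processing notes name Cell Ranger 2, Seurat 2 and mm10, and any cell filter of the authors is not given in the sources used. Kept cells had 500 or more detected genes and no more than 10% mitochondrial UMIs, and doublets called by Scrublet in scanpy 1.11.5 were removed. It marked 1.38% to 3.06% of the let-7 antagomiR, labelled miR-124 and double combination libraries. In the other 3 it marked 0.193% of the miR-25 mimic library, 0.147% of that labelled triple combination and 0.111% of the control. These are so few that the removal cannot be relied on in those 3 libraries, and its threshold there was not examined. All cells were clustered together (2000 variable genes, 30 principal components, 15 neighbours, Leiden resolution 0.6) and clusters named "-like" from fixed marker lists, so names are rebuilt here and not the authors'. Counts were summed per class and library, 3662116 to 12048731 UMIs for Müller-like cells, and expressed as CPM. Contrasts are log2 ratios of CPM + 5 over genes that reached 20 CPM in any library, a scale that understates differences of low genes, and call 1.5-fold. Levels have exact Poisson, ratios exact conditional and shares exact Clopper-Pearson intervals at 95% (scipy 1.17.1). The calling step was checked on simulated counts, but the outcome is not reported here, so that check lends no weight to the calls. The rule for named genes was all 9 members in each contrast, the 3 genes most like each, the highest and lowest genes of each pathway list, and markers. The text gives the members' levels in full but contrast values mainly for those past or near the limit, and the ends of some lists only. Slc3a2, Keap1, Lcn2, Atf4, Phgdh and other list genes beyond that rule were chosen after their values were seen. Members and lists were chosen with earlier results of these data known. 3′ UTRs were taken from GENCODE vM21 (GRCm38). Alternatives tried were another pseudocount, another scaling, other cell filters, all kept cells, subsets of clusters, a doublet removal by score and a clustering without the 9 genes and lists.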

Additional observations from a re-analysis of the deposited data

How the results depend on the processing

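Of 14 member differences past 1.5-fold, all 14 kept their sign and call with a pseudocount of 1 CPM, median-of-ratios scaling, at least 1000 genes per cell and a clustering without the 9 genes and lists. Without the cells of the 4% highest Scrublet scores 13 were called, and the count higher in the double combination against control became 0. With a pseudocount of 1 CPM, 2 members were higher in the library labelled miR-124. Over all kept cells, where 8 of the 9 members passed the filter, 5 were called. The counts higher became 0 for the library labelled miR-124, and 1 for miR-25 mimic, for the library labelled triple combination and for it against the double combination. The counts lower became 0 for the library labelled miR-124, and 1 for both the library labelled triple combination and the double combination. Gclc in the library labelled miR-124 reversed there to -0.069, where classes are mixed. The shares of all genes moved too, to 6.83% higher for miR-25 mimic, to 3.71% higher and 1.11% lower for the library labelled miR-124, to 8.10% and 2.96% for that labelled triple combination, and to 4.10% and 4.01% for the double combination, each against control.

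Without the Gfap-led cluster, which holds the most Car14, 9 were called. The counts higher became 0 for the double combination against control and 1 for the library labelled triple combination against it, those lower 0 for the library labelled miR-124 and 1 for the library labelled triple combination, and Slc7a11 in the library labelled miR-124 reversed to 0.086. In the Npvf-led cluster alone, an alternative chosen after seeing the data, the counts lower for these libraries were also 0 and 1. Without the Gfap-led cluster 2.01% of all genes were lower for the library labelled miR-124 and 2.5% for that labelled triple combination, and in the Npvf-led cluster 2.73% and 2.70%.

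With 1000 or more genes and no more than 5% mitochondrial UMIs, Slc7a11 reversed in the double combination to -0.24 against control and -0.0058 against let-7 antagomiR. The counts higher became 0 in both contrasts. The counts lower became 1 for the double combination against each of let-7 antagomiR and miR-25 mimic, 3 for let-7 antagomiR and 2 for miR-25 mimic. Of all genes, 8.68%, 8.40%, 4.65% and 3.91% were lower in these 4 contrasts, above the shares without the limits. With the mitochondrial limit alone, also chosen after seeing the data, Slc7a11 in the double combination was -0.29, the counts higher of the double combination against control and against let-7 antagomiR were 0, and the counts lower were 1 against let-7 antagomiR (double combination), 3 for let-7 antagomiR and 3 for miR-25 mimic, where 8.11%, 4.66% and 3.79% of all genes were lower. Fewer cells enter these sums; the cause was not tested.

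No paired analysis was possible because each treatment has 1 library, and leaving out a replicate was not possible for the same reason. Depth limits Nqo1 and Gclc most, with 865 and 1109 UMIs over all Müller-like cells.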
